A study of Mus musculus with 6 samples.

Results

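The 10 genes described here are 3 Notch receptors (Notch1, Notch2, Notch3), the DNA-binding factor of the pathway (Rbpj), and 6 genes known as targets of Notch signaling in early thymocytes (Hes1, Hes5, Dtx1, Nrarp, Ptcra and Il2ra). They were picked by symbol from the deposited table of 22322 genes, in which all 10 had a row, and all 10 passed the filter on low counts. RNA-Seq was performed on sorted DP (CD4+CD8+) thymocytes in 3 libraries of Paxbp1 fl/fl control mice and 3 libraries of Paxbp1 cKO mice (Paxbp1 fl/fl Lck-cre), all untreated, on the C57BL/6 background, of mixed sexes and aged 4 to 7 weeks. The sample titles call the controls WT and the others Lck-KO, and the genotypes given here follow the methods text. By that text the controls were littermates that carry the floxed alleles, and they are taken here to lack Cre. The groups would then differ both in the deletion and in the Lck-cre transgene, which acts in T cells from the DN (CD4-CD8-) stage on. The labels do not tie a library to 1 mouse, so the spread between libraries may be partly technical. The choice of genes was made with results of this comparison known. Differences between the groups in the 10 genes are therefore given as a description, with a standard error and no p-value, and the number of them past the threshold of the fit over all genes is printed only beside the share of all genes.

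Notch receptors are cleaved when a ligand on a neighbouring cell binds them. Their intracellular part enters the nucleus and joins Rbpj and a Mastermind coactivator on DNA, where it turns on target genes. In the thymus, Notch1 engaged by Dll4 on cortical epithelium commits progenitors to the T lineage and carries them through the DN stages, and its activity falls after β-selection, so that DP thymocytes normally express targets such as Il2ra and Hes1 at low levels.

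Libraries held between 18963775 and 26252248 counts, and 1 count was worth 0.0381 to 0.0527 CPM (read counts scaled to library size) before TMM factors of 0.981 to 1.01, which all CPM values below include. On the first principal component, which held 38.9% of the variance, the control libraries lay between -37.8 and -28.3 and those labelled cKO between 26.5 and 39.7. For Paxbp1 itself, the controls (replicates 1, 2 and 3) gave 774, 318 and 400 counts, and the libraries labelled cKO gave 851, 905 and 1075. Only exon 8 is floxed, and counts over the whole gene do not measure that exon, so they do not check the genotype labels. Each direction given below rests on the labels. Of 12 markers of DP thymocytes, all were detected, and their summed level was 15839 to 18423 CPM in the control libraries and 11653 to 13705 CPM in the libraries labelled cKO, with 4 markers lower (Cd8b1, Rag1, Cd1d1 and Satb1) by edgeR's quasi-likelihood test at an adjusted p below 0.05, and 1 to 7 lower when 1 library was left out in turn. Of all tested genes, 5.89% were lower by the same test.

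The stretch before the start site was read for 9 of the 10 genes from the RefSeq promoter table on GRCm38.p6, and Hes1 had no match. The core of the motif bound by RBPJ, TGGGAA, was searched on both strands of the 250 bases before each annotated start, and so was its longer form GTGGGAA, which contains the core. The core occurred in the windows of 3 of the 9 genes (Hes5, Rbpj and Ptcra), and in 21.6% of the 32851 windows of all genes. The longer form occurred for Hes5 alone among the 9, and in 5.42% of all windows. In the Hes5 window, which also overlaps an exon of Gm20421 on the other strand, one copy begins 226 bases and the other 83 bases before the start, on opposite strands. That arrangement, looked for after the sequence had been seen, was present in 18 windows in all, or 0.0548%. Ptcra has 2 copies of the core, beginning 84 and 32 bases before the start and both on the strand of the gene. Il2ra had no match. The windows of Hes5 (chr4:154960673-154960922, plus strand), Ptcra (chr17:46763713-46763962, minus strand) and Il2ra (chr2:11642542-11642791, plus strand) are shown to set the motif's placement beside the levels described next. They read 5′ to 3′ on the strand of the gene, with matches in capitals. A match in these letters describes the sequence only.
Hes5: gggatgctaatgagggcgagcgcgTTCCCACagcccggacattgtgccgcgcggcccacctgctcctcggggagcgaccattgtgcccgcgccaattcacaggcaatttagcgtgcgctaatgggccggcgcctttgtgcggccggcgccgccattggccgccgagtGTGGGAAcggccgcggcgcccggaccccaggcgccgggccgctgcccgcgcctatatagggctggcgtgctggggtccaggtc
Ptcra: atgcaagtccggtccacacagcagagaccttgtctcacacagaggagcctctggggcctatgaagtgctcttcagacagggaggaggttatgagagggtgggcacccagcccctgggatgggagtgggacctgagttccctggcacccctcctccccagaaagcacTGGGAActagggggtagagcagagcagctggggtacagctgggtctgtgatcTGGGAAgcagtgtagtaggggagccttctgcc
Il2ra: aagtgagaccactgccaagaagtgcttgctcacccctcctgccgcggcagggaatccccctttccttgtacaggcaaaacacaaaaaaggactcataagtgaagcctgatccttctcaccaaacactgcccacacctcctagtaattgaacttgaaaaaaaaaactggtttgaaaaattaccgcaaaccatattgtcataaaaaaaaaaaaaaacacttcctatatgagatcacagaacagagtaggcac

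Among the targets, Hes1, Il2ra and Dtx1 were higher in every library labelled cKO than in any control library, while Hes5, Nrarp and Ptcra overlapped between the groups. The receptors and Rbpj differed less than Hes1, Il2ra and Dtx1 on the log2 scale. Notch1 was slightly higher without overlap, and Notch2, Notch3 and Rbpj overlapped. On the log2 scale the median difference of the 10 genes was 0.05, with 6 above 0, and over all 11488 tested genes the median was -0.0017. In the fit over all genes, edgeR's quasi-likelihood test called 3 of the 10 at an adjusted p below 0.05 (Hes1, Il2ra and Dtx1), all of them higher and 0 lower (0 lower also at an unadjusted p below 0.05, by DESeq2 and by limma-voom). With 1 library left out in turn, 1 to 3 were called higher and 0 to 1 lower, with the fewest without control 3, cKO 1 or cKO 3. Of all tested genes, 10.4% were called in either direction, 4.47% higher and 5.89% lower. With a log2 fold change beyond 1 required as well, 2 of the 10 were called (Hes1 and Il2ra), against 2.76% of all tested genes, 1.53% higher and 1.23% lower. Groups without overlap were seen for 4 of the 10, all higher, and for 33.0% of all tested genes, 15.7% being higher and 17.3% lower. Since the genes were named with this comparison known, nothing is read from these counts. In bulk RNA, a different share of cells expressing a gene cannot be told apart from a different level in each cell.

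**Figure D1:**
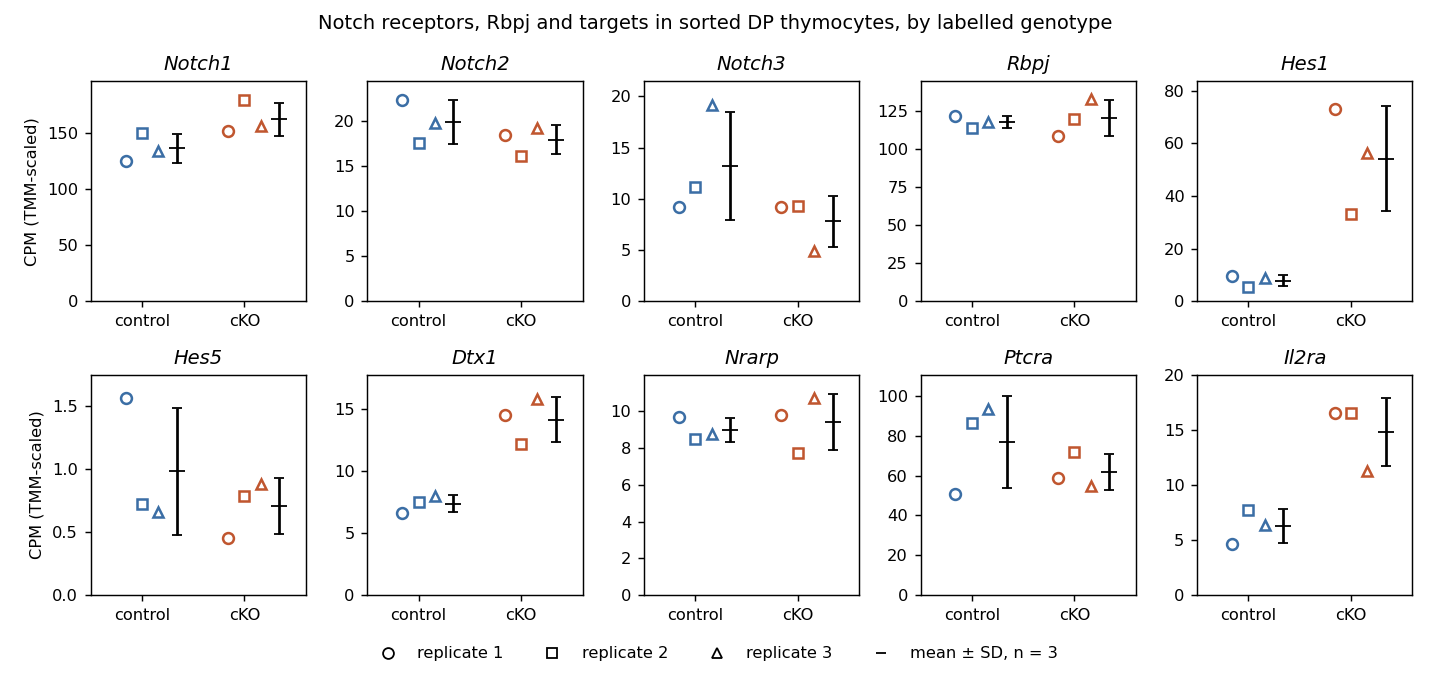
TMM-scaled CPM (y axes, from 0) of each of the 10 genes in the 3 control libraries (blue) and the 3 libraries labelled cKO (orange), with the mean ± S.D. (n = 3) as black bars. Hes1 lies between 5.40 and 9.44 CPM in the control libraries and between 33.3 and 72.8 CPM in those labelled cKO, whereas Rbpj and Nrarp sit at similar heights in both groups.

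Notch1, the receptor that T-lineage commitment depends on, spans chromosome 2 from 26457903 to 26516663 on the minus strand (ENSMUSG00000026923, positions here and below from GENCODE M21 on GRCm38, matched by identifier). Replicates 1, 2 and 3 of the controls gave 2407, 2915 and 3444 counts, and 3331, 3429 and 3370 came from the libraries labelled cKO. Scaled for depth, this was 125, 150 and 134 CPM against 152, 179 and 156 CPM. The lowest cKO library lay just above the highest control library, and the log2 difference was 0.25 (standard error 0.12), with means of 136 ± 12.7 and 162 ± 14.4 CPM (mean ± S.D., n = 3 each). Notch1 was thus 1.19-fold higher, and its coefficient of variation within a group was 9.31% and 8.88%.

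Notch2, a receptor best known in B cells and myeloid cells (ENSMUSG00000027878, chromosome 3 from 98013527 to 98150361), had 22.3, 17.5 and 19.8 CPM in the control libraries and 18.4, 16.1 and 19.2 CPM in those labelled cKO. The groups overlapped and the log2 difference was -0.15 (standard error 0.18). Notch3, a receptor that early thymocytes and vascular mural cells express (ENSMUSG00000038146, chromosome 17 from 32120820 to 32166852), had 9.23, 11.2 and 19.2 CPM against 9.22, 9.27 and 4.89 CPM. Control library 3 and the library labelled cKO 3 stood away from the others, and control library 1 was level with cKO 1 and cKO 2. The log2 difference of -0.76 (standard error 0.34) ranged from -0.97 to -0.39 when 1 library was left out in turn. Among 9 markers of fibroblasts and pericytes, the only one tested was Pdgfrb, with 32, 43 and 98 counts in the control libraries and 34, 49 and 20 in those labelled cKO. Pdgfrb was highest in control library 3 and lowest in cKO 3, as Notch3 was. Col1a1 had 0 counts in all controls and in cKO 1, and 39 and 41 in cKO 2 and cKO 3. Col1a2, Col3a1 and Dcn were at 0 in all 6 libraries. Pdgfra had 1 count in cKO 3 and 0 elsewhere. Rgs5 had 4 counts in cKO 3 and Cspg4 had 6 in cKO 2, each with 0 in all other libraries. Acta2 had 3, 7 and 15 counts in the control libraries and 3, 0 and 0 in those labelled cKO. Whether fibroblasts or pericytes contribute to Notch3 was not tested.

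Rbpj, which binds the motif above and carries the receptor's intracellular part on DNA (ENSMUSG00000039191, chromosome 5 from 53466152 to 53657362), was the steadiest of the 10 genes in the control libraries, with 122, 114 and 118 CPM. The libraries labelled cKO had 109, 120 and 133 CPM, which lay on both sides of the control values. The log2 difference was 0.03 (standard error 0.12), and its sign turned when single libraries were left out, between -0.05 and 0.10.

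Hes1, a bHLH repressor and direct Notch target that DN thymocytes need, showed the largest difference of the 10 genes. It lies on chromosome 16 from 30064384 to 30067796 (ENSMUSG00000022528), and no other annotated gene overlaps it. Counts were 182, 105 and 223 in the control libraries and 1594, 639 and 1219 in those labelled cKO. This was 9.44, 5.40 and 8.66 CPM against 72.8, 33.3 and 56.3 CPM. The lowest cKO library, cKO 2, was still well above the highest control library. Within the libraries labelled cKO the values spread over 36.7% (coefficient of variation), and in the control libraries over 27.4%. The log2 difference was 2.79 (standard error 0.31), a 6.90-fold higher level, and stayed between 2.51 and 3.04 with 1 library left out in turn. Ranked by log2 difference from the highest, Hes1 was number 47 of 11488 tested genes.

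Hes5, a related bHLH repressor whose promoter window holds the longer motif on both strands (ENSMUSG00000048001, chromosome 4 from 154960923 to 154962371), was close to the detection limit. It had 30, 14 and 17 counts in the control libraries and 10, 15 and 19 in the libraries labelled cKO, which is 1.56, 0.720 and 0.660 CPM against 0.456, 0.781 and 0.877 CPM. The groups overlapped, and the log2 difference of -0.47 had a standard error of 0.71, so that a difference of the size seen for Dtx1 could not be told from none at this depth. Gm20421 on the other strand shares 433 nt, or 31.8%, of the exonic sequence of Hes5, and no source used here states the strand setting of the counting. Per kilobase, the level of Hes1 was 5.28, 6.48 and 11.4 times that of Hes5 in the control libraries and 139, 37.0 and 55.5 times in those labelled cKO (ratio of FPKM within a library).

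Dtx1, an E3 ubiquitin ligase of the Deltex family that is both a target and a modulator of Notch (ENSMUSG00000029603, chromosome 5 from 120680202 to 120711927), had 128, 146 and 205 counts in the control libraries and 318, 235 and 343 in those labelled cKO. The corresponding levels were 6.64, 7.51 and 7.96 CPM and 14.5, 12.2 and 15.8 CPM. Replicates lay close together in both groups, with coefficients of variation of 9.10% and 12.8%. The log2 difference was 0.94 (standard error 0.23), a 1.93-fold higher level, and lay between 0.86 and 1.04 with 1 library left out in turn.

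Nrarp, a small ankyrin-repeat protein that the pathway induces and that dampens the Notch complex (ENSMUSG00000078202, chromosome 2 from 25180758 to 25183339), gave 9.70, 8.48 and 8.77 CPM in the control libraries and 9.77, 7.71 and 10.7 CPM in the libraries labelled cKO. The values interleaved, and the log2 difference was 0.07 (standard error 0.24). Its counts are uncertain in source, because Gm38287 on the other strand shares 2051 nt, or 79.4%, of its exonic sequence. Nrarp lies 1274563 nt from Notch1 on the same chromosome.

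Ptcra, the pre-TCRα chain that pairs with TCRβ at β-selection (ENSMUSG00000036858, chromosome 17 from 46755663 to 46763712), had 973, 1680 and 2408 counts in the control libraries and 1292, 1382 and 1185 in those labelled cKO. Control library 1, at 50.5 CPM, lay below all libraries labelled cKO (59.0, 72.0 and 54.7 CPM), while control libraries 2 and 3, at 86.4 and 93.5 CPM, lay above them. The log2 difference was -0.31 (standard error 0.22), and without control library 1 it was -0.54. Il2ra, the IL-2 receptor α chain or CD25 that marks the DN2 and DN3 stages (ENSMUSG00000026770, chromosome 2 from 11642807 to 11693193), went the other way. It had 90, 151 and 164 counts in the control libraries and 364, 319 and 245 in the libraries labelled cKO, or 4.67, 7.76 and 6.37 CPM against 16.6, 16.6 and 11.3 CPM. No library of one group reached the other, and the log2 difference was 1.24 (standard error 0.28), a 2.37-fold higher level. On the authors' FPKM, as log2(FPKM + 0.1), the difference in Il2ra was 0.94.

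Levels can be compared between genes on the authors' FPKM, which is scaled to gene length. In the control libraries Ptcra was highest at 59.2 ± 17.1 FPKM (mean ± S.D., n = 3), followed by Rbpj at 21.8 ± 0.952 and Notch1 at 14.3 ± 1.31, each apart from the next in every library. Hes1 at 5.31 ± 1.49 and Nrarp at 3.45 ± 0.295 FPKM came next and overlapped. Notch2, Dtx1, Il2ra and Notch3, with means from 1.63 to 1.88 FPKM, could not be ordered beyond their spread. Hes5 was lowest at 0.767 ± 0.402 FPKM and overlapped with Notch3. Set against the 11488 tested genes, the mean of Ptcra in the control libraries was at percentile 83.7, that of Notch1 at 52.5, that of Hes1 at 32.5 and that of Hes5 at 11.8. In the libraries labelled cKO, the mean of Hes1 came after that of Ptcra, with 37.1 ± 13.5 FPKM against 48.6 ± 7.39 (mean ± S.D., n = 3 each). It overlapped both with Ptcra and with Rbpj, the next at 22.6 ± 2.32 FPKM. This put Hes1 at percentile 74.4. Il2ra and Dtx1, at 3.55 ± 0.841 and 3.54 ± 0.431 FPKM, stood level with Nrarp at 3.66 ± 0.576 and apart from Notch2 at 1.71 ± 0.144. Notch1 exceeded Notch2 in each library, by 6.18 to 12.4 times on the FPKM scale, and Notch3 by 5.89 to 26.8 times.

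**Figure D2:**
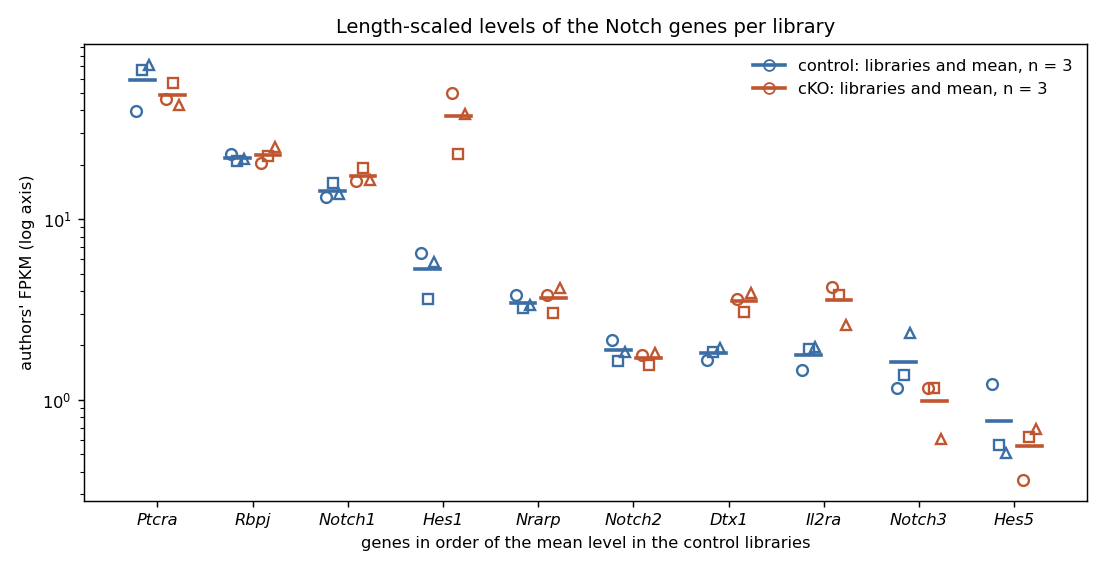
Authors' FPKM on a log axis for each gene and library, in the order of the control means, with controls in blue, libraries labelled cKO in orange and the group mean as a line (n = 3). Ptcra, Rbpj and Notch1 lead in the control libraries, and the mean of Hes1 is 5.31 FPKM in the control libraries and 37.1 FPKM, next to Ptcra, in those labelled cKO.

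The wider pathway was read from a hand-written list of 77 other Notch genes, of which 63 passed the filter on low counts. Of these, 1 rose and 6 fell in the libraries labelled cKO at an adjusted p below 0.05 (edgeR's quasi-likelihood test, Benjamini-Hochberg over 11488 genes), which is 11.1% called against 10.4% of all tested genes. Of all tested genes, 4.47% were higher and 5.89% lower by the same test. Without overlap between the groups, 6 of the 63 were higher and 20 lower, against 15.7% and 17.3% of all tested genes. The median log2 fold change of the 63 was -0.14. Among the ligands, 2 of 6 passed the filter and 0 were called by edgeR, DESeq2 or limma-voom, with 1 higher at an unadjusted p below 0.05. Dll4, the ligand of the cortical epithelium, had 0, 0 and 14 counts in the control libraries and 12, 19 and 8 in those labelled cKO (log2 fold change 1.68, standard error 1.24, edgeR adjusted p = 0.419). Jag2 had 6.82 ± 0.946 CPM against 11.6 ± 3.06 CPM, with no overlap (mean ± S.D., n = 3 each, log2 fold change 0.76, standard error 0.27, edgeR adjusted p = 0.101). Of 10 markers of thymic epithelium, Foxn1 was at 0 counts in 5 libraries and had 18 in cKO 2, Krt5 was at 0 in all 6, and Epcam had 163 to 267. Prss16 had 0 counts in each control library and 9, 15 and 10 in those labelled cKO, and Ccl25 had 115, 109 and 136 against 148, 178 and 239 (edgeR adjusted p = 0.146). Psmb11, also on the list, had 9, 45 and 16 counts against 18, 9 and 20 (log2 fold change -0.61, edgeR adjusted p = 0.670). Of the 3 epithelial markers that passed the filter, 1 had a log2 fold change above 0 (Ccl25) and 0 were called. The part of such cells in Dll4 was not tested.

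edgeR called 0 genes among the 4 tested sugar transferases or the 10 tested genes of receptor cleavage, with 1 gene of each set lower at an unadjusted p below 0.05. DESeq2 called 1 gene of the cleavage set, Ncstn, lower and 0 of the transferases, and limma-voom called 0 in either set. In the nucleus, Maml1, the Mastermind coactivator that locks onto the Notch and Rbpj complex, fell from 34.0 to 20.4 CPM (log2 fold change -0.74, standard error 0.17, edgeR adjusted p = 0.0228). Ncor1, a corepressor that occupies Rbpj sites when Notch is off, fell from 344 to 230 CPM (log2 fold change -0.58, standard error 0.13, edgeR adjusted p = 0.0207). Dtx3, a Deltex relative of Dtx1, fell from 83.5 to 57.4 CPM (log2 fold change -0.54, standard error 0.13, edgeR adjusted p = 0.0301), whereas Dtx1 was higher. All 3 calls depended on single libraries. Without control 2, control 3, cKO 2 or cKO 3 none of the 3 passed, and without cKO 1 only Ncor1 did.

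Of 12 tested genes on the list of other T-lineage Notch targets and of Hes and Hey family genes, 1 rose and 3 fell. This was 33.3% called, against 10.4% of all tested genes (4.47% higher and 5.89% lower). This list, like the wider one, was chosen with earlier results of these data known, so nothing is read from its share. Hey1, a bHLH repressor of the same family as Hes1, had 1.82, 2.42 and 3.69 CPM in the control libraries and 13.6, 7.86 and 9.32 CPM in those labelled cKO. The difference in Hey1 passed the edgeR test (adjusted p = 0.0113) at a log2 fold change of 1.95, standard error 0.37, and lost the call without cKO 1 or cKO 3. Trib2, a pseudokinase, fell from 115 ± 22.5 to 61.4 ± 7.17 CPM (log2 fold change -0.90, standard error 0.16, edgeR adjusted p = 0.00983) and was called whichever library was left out. Bcl11b, the factor that locks in T-lineage commitment, fell from 559 ± 70.8 to 311 ± 27.6 CPM (log2 fold change -0.84, standard error 0.13, edgeR adjusted p = 0.00613), except without cKO 3. Igf1r, a growth factor receptor, fell from 14.3 ± 2.48 to 5.57 ± 1.77 CPM (log2 fold change -1.36, standard error 0.29, edgeR adjusted p = 0.0181) and lost the call without control 3 or cKO 1. Myc, another target, had 60.1 ± 10.5 and 67.0 ± 11.8 CPM (mean ± S.D., n = 3 each, log2 fold change 0.16, standard error 0.17, edgeR adjusted p = 0.606), and Hes6, the most abundant Hes gene on the list, had 166 ± 13.5 and 150 ± 6.10 CPM (edgeR adjusted p = 0.434). Of the 12, 3 had a log2 fold change above 0. Without regard to the test, 2 were higher without overlap (Hey1 and Ccnd1) and 8 lower without overlap, namely Trib2, Bcl11b, Igf1r, Ccnd3, Gata3, Tcf7, Lef1 and Runx1. Of all tested genes, 15.7% were higher and 17.3% lower without overlap.

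**Figure D3:**
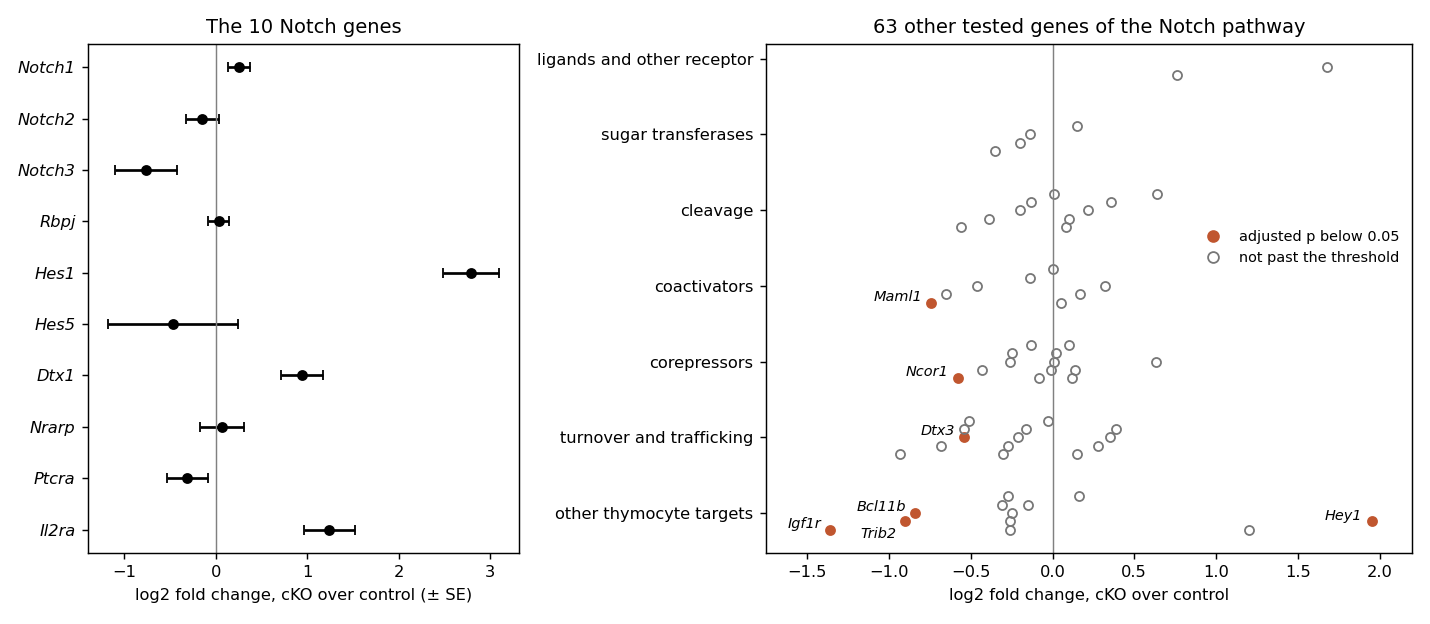
Left, log2 difference of the 10 genes, libraries labelled cKO over control, with standard errors. Right, log2 fold change of the 63 other tested pathway genes by role, with the 7 past an adjusted p of 0.05 filled and named, of which Hey1 lies above 0 and the other 6 below.

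Of 17 other genes of the stages before DP, 7 passed the filter, and edgeR called 1 higher and 0 lower. Of all tested genes, 4.47% were called higher and 5.89% lower. At an unadjusted p below 0.05 there were 2 higher and 1 lower, and DESeq2 and limma-voom called 1 higher and 0 lower. Their median log2 fold change was -0.01. Mpzl2, an adhesion molecule of early thymocytes, rose from 10.7, 9.36 and 21.2 CPM to 54.8, 30.2 and 38.9 CPM (log2 fold change 1.58, standard error 0.32, edgeR adjusted p = 0.0156), though not without control 2, cKO 1 or cKO 3. Kit, the stem cell factor receptor of DN1 and DN2 cells, had 3.99 ± 2.51 and 2.09 ± 0.956 CPM (mean ± S.D., n = 3 each, edgeR adjusted p = 0.335).

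Markers of other cells were read beside these results. Macrophage markers summed to 53.8, 36.0 and 29.6 CPM in the control libraries and to 84.8, 76.4 and 102 CPM in those labelled cKO, with 14 of 20 tested, 7 called higher (1 to 9 with 1 library left out in turn) and 2 at 0 counts in all libraries. Of all tested genes, 4.47% were called higher. Adgre1, which encodes F4/80, was at 0 counts in all control libraries and had 50, 42 and 52 counts in those labelled cKO. Among the libraries labelled cKO, cKO 2 was lowest for both Hes1 and the macrophage sum, while cKO 1 was highest for Hes1 and cKO 3 for the sum. The part of these cells in Hes1, Il2ra, Dtx1 and Hey1 was not tested. Dendritic cell markers summed to 1248 to 1547 CPM against 1021 to 1338 CPM, nearly all from Ccr9, which DP thymocytes express too, with 1 of 4 tested called, Bst2, which was higher but lost the call whichever library was left out. Markers of γδ and innate T cells summed to 85.2 to 154 CPM and 151 to 180 CPM, with 0 of 5 tested called. Most of this sum came from Trdc, which overlapped between the groups (edgeR adjusted p = 0.224). B cell markers summed to 42.4 to 46.7 CPM and 28.3 to 32.0 CPM, nearly all from Cd79b, which fell. Thymic epithelial markers summed to 16.8 to 20.4 and 17.7 to 24.2 CPM, endothelial markers to 144 to 184 and 163 to 185 CPM, mostly Pecam1 with Kdr at 0 throughout, and fibroblast and pericyte markers to 1.82 to 4.39 and 1.69 to 4.89 CPM.

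**Figure D4:**
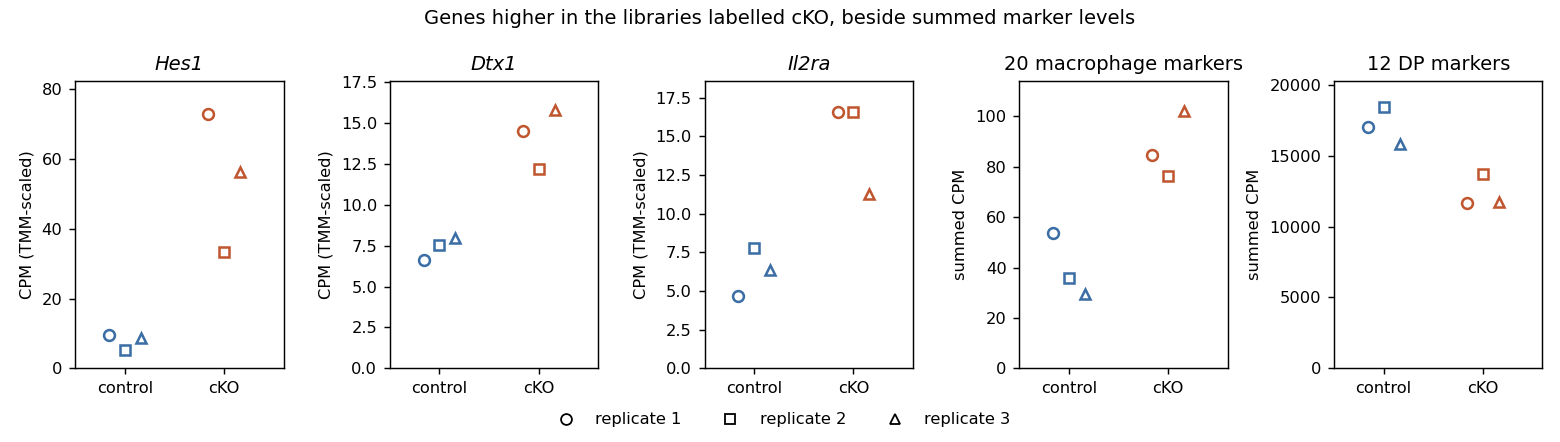
TMM-scaled CPM of Hes1, Dtx1 and Il2ra per library, beside the summed CPM of 20 macrophage markers and 12 DP markers, with symbols for the replicate and colours for the labelled genotype. Macrophage markers lie higher in all 3 libraries labelled cKO (76.4 to 102 CPM) and DP markers lower (11653 to 13705 CPM).

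Across the 6 libraries, the profiles closest to that of Hes1 were sought among 9204 other genes with a mean of at least 5 CPM, by the root-mean-square difference of log2 CPM after centring each gene on its own mean. The closest was Nr4a2, an orphan nuclear receptor, at 0.381, with 14.6, 5.04 and 9.28 CPM in the control libraries and 54.6, 22.9 and 60.3 CPM in those labelled cKO. Gadd45b, a stress-inducible gene, followed at 0.448 and Trf, which encodes transferrin, at 0.484. In each of the 3, as in Hes1, cKO 2 was the lowest of the libraries labelled cKO. The 3 were picked by likeness over these same libraries, so this follows in part from the choice. Of the other 8 genes of the 10 that were ranked, Il2ra stood at 0.963 and rank 145, Dtx1 at 0.981 and rank 165, Nrarp at rank 3210 and Notch1 at rank 2666. All points share 6 libraries in 2 groups, and closeness includes a like difference between the groups.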

How the data were processed

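RNA-Seq libraries were made by the authors from sorted DP thymocytes after pre-amplification of cDNA and sequenced on an Illumina HiSeq2500. For the library kit, the methods text names Vazyme products and the labels a SMARTER kit. The deposited table holds raw counts of reads per gene and FPKM made by the authors, scaled to gene length and library size. Group means, fold changes, p-values and FDR of the authors' own comparison also stand in the table and were not used. The submitters' processing notes name fastp 0.18.0, Bowtie2 2.2.8, HISAT2, StringTie 1.3.1 and RSEM. Neither the genome build nor the annotation or strand setting was found in these sources.

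The counts were fitted with edgeR 4.0.16 (R 4.3.3), by TMM scaling, filterByExpr (minimum count 10, minimum total 15), which kept 11488 of 15349 genes with a count, and the quasi-likelihood test with genotype as the only term. Genes were called at a Benjamini-Hochberg adjusted p below 0.05, without the fold limit of the published methods, which is an alternative. Standard errors come from the same fit. edgeR's common biological coefficient of variation was 0.228. Replicate pairs gave a chi-square over degrees of freedom of 19.8 to 68.4, so none were counted as 1 sample. On simulated counts for this comparison, 160 of 200 changed genes among 11488 were called, with 5 unchanged ones. The genes and lists were chosen with earlier results of these data known. Named genes are the 10, the called genes of the pathway list and of the list of early stage genes, Dll4, and the 3 closest to Hes1. Other genes were named after their values were seen. Alternatives were DESeq2 1.42.0, limma-voom (limma 3.58.1), RLE factors, total counts, no filter, a mean of 5 CPM, a replicate block, the fold limit, each library left out, and FPKM with a pseudocount of 0.1. The list of KEGG Notch genes in the table was added after the data were seen. Of the marker genes for γδ cells, 8 of 10 were found by symbol.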

Additional observations from a re-analysis of the deposited data

How the results depend on the processing

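The log2 differences of the 10 genes moved by less than 1 S.D. between replicates under every alternative run, including RLE factors, total counts and FPKM, and the signs of Hes5, Nrarp and Rbpj turned in at least 1 of them. Counts of calls depended mostly on single libraries. Without 1 library in turn, 42 to 1000 of all tested genes were higher and 78 to 1030 lower, against 514 and 677 with all 6. For the other Notch pathway genes this was 0 to 3 higher and 2 to 11 lower, against 1 and 6, and for the early stage genes 0 to 1 higher, against 1, and 0 lower each time. The lowest counts of all genes came without cKO 3 and the highest without control 1. DESeq2 called 953 genes higher, and 2 of the pathway genes higher. With the replicate block 2 pathway genes were higher, as they were with limma-voom, with no filter on low counts and with a mean of at least 5 CPM, in each case Hey1 and Kdm5a. With a log2 fold change above 1 required as well, 176 genes were higher and 141 lower, and 1 pathway gene was lower. In the KEGG Notch list, 1 gene was higher and 2 were lower of 37 tested. The cause of these shifts was not tested. Same-numbered libraries did not deviate together (correlations of their deviations of 0.0451, 0.0377 and -0.0300), so the numbers were not taken as pairs. With the replicate block, 570 of all tested genes were higher and 668 lower, against 514 and 677 without it. At the depth of these libraries, Hes5 and Dll4 had too few counts for a difference to be measured well.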
